A study of Mus musculus with 2 samples.

Results

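Ryr3, Dgki, P2ry10, Otop1 and S100a6 are 5 genes of calcium, diacylglycerol and ion signalling, taken by name from the 8139 gene symbols of an RNA sequencing experiment in mouse mast cells. They were picked because their levels differed between the libraries, so their own levels and differences are given as a description with no test. The libraries were 1 from bone marrow derived mast cells of Tet2-/- mice and 1 from the same kind of cells of wild type (WT) mice, both of strain C57BL/6. Marrow from femurs was grown for 4 to 6 weeks with interleukin-3 at 10 ng/ml and stem cell factor at 5 ng/ml, and cultures above 97.5% for surface FcɛRI and c-Kit were used. Whether a library came from 1 mouse or from several, and how the Tet2 allele was made, is not given in the sources used here. Each genotype being 1 library, the spread between cultures or mice is unknown for every value below. The level of Tet2 was not analysed here, and the labels were taken as given.

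Mast cells, resident cells of barrier tissues, degranulate when antigen cross-links IgE on the receptor FcɛRI. The receptor's signal activates phospholipase C, which splits a membrane lipid into inositol trisphosphate, the opener of calcium channels on the endoplasmic reticulum, and diacylglycerol, which recruits protein kinase C and Ras activators to the membrane. Ryanodine receptors are a second family of calcium release channels, diacylglycerol kinases end the diacylglycerol signal, receptors for lysophospholipids such as P2ry10 couple outside lipids to G proteins, and S100 proteins bind the calcium that is released. Tet2 encodes an enzyme that oxidises 5-methylcytosine, which in mammals sits mainly at CpG dinucleotides.

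Dgki, P2ry10 and Otop1 were lower in the Tet2-/- library while S100a6 was higher, and any part of CpG sites in this was not tested. The promoter sequences of these genes are shown with their CpG dinucleotides marked. Each is the 250 bases before an annotated RefSeq start (GRCm38.p6, the build of mm10), 5′ to 3′ on the strand of the gene, with every CpG in capitals. The Dgki window is chr6:37299977-37300226 on the minus strand, the Otop1 window chr5:38277154-38277403, the S100a6 window chr3:90612644-90612893, and the P2ry10 windows, of its 2 annotated starts, chrX:107088242-107088491 and chrX:107089083-107089332, these last 4 on the plus strand. By the GENCODE gene bounds given below, the Otop1 window and that of the second P2ry10 start lie inside the gene. Most of the Dgki window and the last bases of the S100a6 window do so too. The RefSeq starts of these windows thus differ from the outer GENCODE starts. Of the 5 genes, 4 matched the table of promoters, and Ryr3 was not matched.
Dgki: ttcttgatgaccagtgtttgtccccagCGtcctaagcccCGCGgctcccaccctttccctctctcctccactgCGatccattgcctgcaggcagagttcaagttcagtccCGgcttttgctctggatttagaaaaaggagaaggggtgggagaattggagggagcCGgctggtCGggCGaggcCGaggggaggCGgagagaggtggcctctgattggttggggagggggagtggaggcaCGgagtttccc
Otop1: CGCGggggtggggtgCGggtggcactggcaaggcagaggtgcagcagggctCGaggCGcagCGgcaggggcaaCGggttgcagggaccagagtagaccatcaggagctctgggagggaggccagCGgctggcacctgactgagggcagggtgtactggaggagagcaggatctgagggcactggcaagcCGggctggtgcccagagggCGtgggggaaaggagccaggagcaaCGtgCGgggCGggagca
P2ry10 start 1: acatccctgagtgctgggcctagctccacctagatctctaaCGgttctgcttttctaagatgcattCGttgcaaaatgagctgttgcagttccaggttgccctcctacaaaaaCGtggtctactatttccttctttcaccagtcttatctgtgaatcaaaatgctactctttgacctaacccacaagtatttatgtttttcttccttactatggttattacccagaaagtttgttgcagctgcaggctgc
P2ry10 start 2: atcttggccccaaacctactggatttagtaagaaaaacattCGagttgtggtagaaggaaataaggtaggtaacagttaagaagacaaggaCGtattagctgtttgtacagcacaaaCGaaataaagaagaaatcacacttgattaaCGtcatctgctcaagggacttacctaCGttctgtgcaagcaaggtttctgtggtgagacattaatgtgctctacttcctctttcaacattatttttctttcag
S100a6: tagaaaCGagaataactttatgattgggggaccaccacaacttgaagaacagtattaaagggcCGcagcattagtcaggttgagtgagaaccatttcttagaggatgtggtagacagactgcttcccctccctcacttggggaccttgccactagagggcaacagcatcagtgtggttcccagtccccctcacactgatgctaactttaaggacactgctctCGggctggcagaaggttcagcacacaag

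The windows of Dgki and Otop1 held 11 and 13 CpG dinucleotides, with 60.8% and 70.0% of bases G or C. Those of P2ry10 held 3 and 5, and that of S100a6 held 3. The median over 32851 promoter windows of the same length was 6, with quartiles of 2 and 16. Over all windows Dgki and Otop1 thus stood between the median and the upper quartile, and P2ry10 and S100a6 between the lower quartile and the median. Genes with a level held more. Of 1430 protein-coding genes with a window and an average of 1 RPKM or more, 848 had 16 or more CpG in their richest window. That is above the counts of Dgki and Otop1. Whether these CpG sites were methylated in either culture was not measured.

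Of 5 motifs searched on both strands 2 had a match in these windows. The first, AGATAA, a form of the site read by GATA factors, was found in the first P2ry10 window on the opposite strand, 106 to 101 bases before the start, and occurs in 9.99% of all windows. The second, GGGCGG, the GC box, was found in the Otop1 window 11 to 6 bases before the start, where it takes in 1 of the capital CpG pairs, and occurs in 32.7% of all windows. Those without a match were TATAAA, the TATA box, which occurs in 12.4% of all windows, and a pair of sites read by the mast cell factor Mitf, of which CACGTG occurs in 6.02% and CATGTG, in 12.3%. A match is a run of letters and says nothing of binding.

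**Figure D1:**
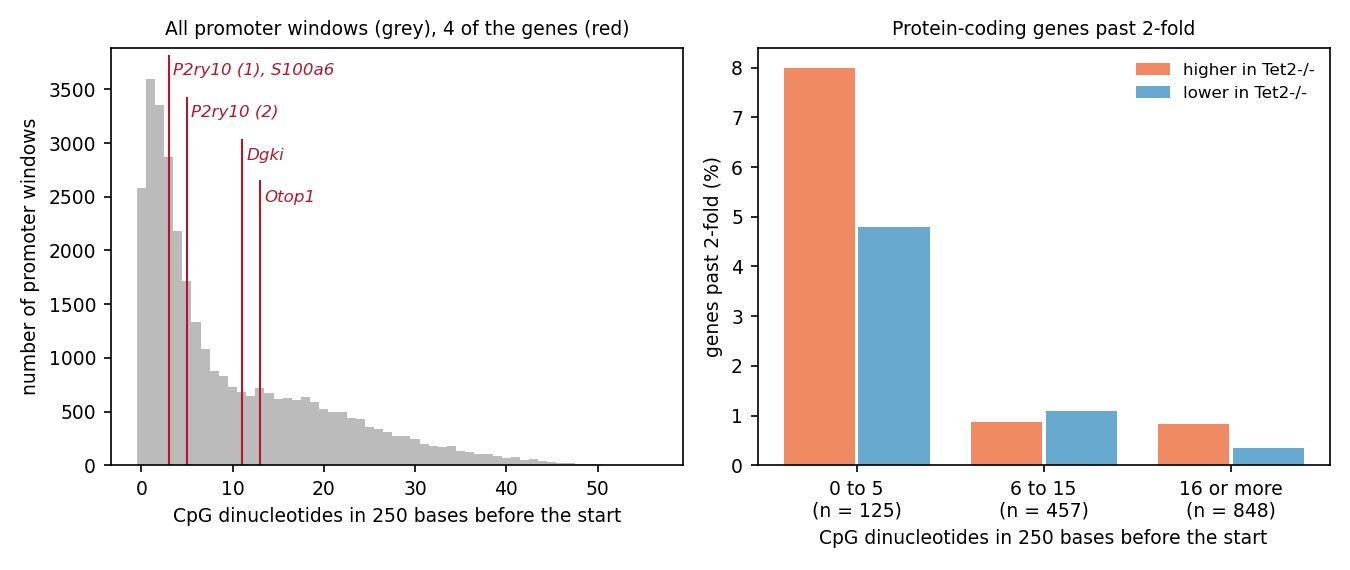
Left, the number of promoter windows (vertical axis) against the number of CpG dinucleotides in the 250 bases before the start (horizontal axis), with the windows of Dgki (11), Otop1 (13), P2ry10 (3 and 5, by start) and S100a6 (3) marked in red. Right, the percentage of protein-coding genes past 2-fold in each direction by the same CpG count, which was 8.0% higher and 4.8% lower in the Tet2-/- library at 0 to 5 CpG, and 0.825% and 0.354% at 16 or more.

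The values were RPKM, read counts divided by gene length and by library size, which allows levels to be compared between genes. Differences are on the log2(RPKM + 1) scale, Tet2-/- minus WT, and that scale understates the change of low genes. Ratios are of the RPKM values, Tet2-/- to WT, and carry in brackets a 95% exact Clopper-Pearson counting interval. The steps between low values corresponded to 31800000 fragments in the Tet2-/- library and 31100000 in the WT library. The intervals rest on those inferred depths, and on the shortest coding transcript of the gene, and cover counting error only. Of 1738 protein-coding genes with an interval, 51.9% had one that left out a ratio of 1, so an interval away from 1 was common.

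Of the 5 genes, 4 were lower and 1 was higher by 2-fold or more. Over all 2107 symbols averaging 1 RPKM or more, 1.61% were lower and 2.90% higher by that much, and over the 1774 protein-coding ones 0.902% were lower and 1.69% higher. The genes were chosen on this contrast, so nothing is read from their count. All 5 passed the filter of 1 RPKM, and all 5 did so in each library alone. The median difference over the 2107 symbols was 0.01 and 93.1% of the protein-coding genes lay within 1.5-fold.

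**Figure D2:**
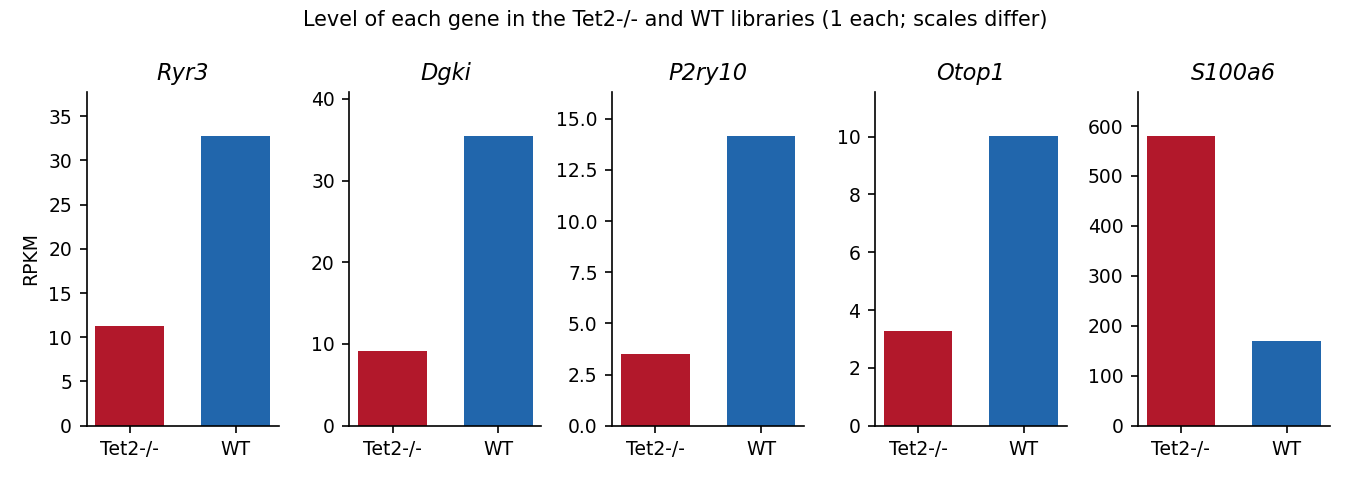
RPKM (vertical axis, scale set for each gene) in the Tet2-/- library (red) and the WT library (blue), each bar being 1 library. Ryr3, Dgki, P2ry10 and Otop1 were lower in the Tet2-/- library, at 3.27 to 11.2 RPKM against 10.0 to 35.5 RPKM in WT, and S100a6 was higher, at 581 against 170.4 RPKM.

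Among the calcium release channels, Ryr3, ryanodine receptor isoform 3, stood at 11.2 RPKM in the Tet2-/- library and 32.8 RPKM in the WT library. The ratio was 0.343 (0.332 to 0.354), on an estimated 5286 and 15088 fragments over a transcript of 14958 bases. The difference of -1.47 was the 12th lowest among the 1774 protein-coding genes. Ryr3 is on chromosome 2, from 112631355 to 113217096 on the minus strand, and its longest basic transcript has 104 exons.

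The 3′ end of Ryr3 overlaps Aven, an apoptosis inhibitor gene on the opposite strand, over 3219 bases of the annotated gene bodies. The strandedness of the library is not given, so reads of the overlap cannot be assigned to either gene. Aven itself stood at 8.74 RPKM in Tet2-/- and 8.74 RPKM in WT. The matching stretch of the Ryr3 and Aven transcripts was 867 bases, and the part of its reads in the Ryr3 value was not tested.

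Other genes of calcium release differed less. Ryr2, the cardiac ryanodine receptor gene, was listed at 0.01 in both libraries, a value read here as no reads, so Ryr3 was the ryanodine receptor gene with a level among those analysed. Itpr3, the gene of an inositol trisphosphate receptor, stood at 4.57 RPKM in Tet2-/- and 6.57 RPKM in WT, a ratio of 0.695 (0.646 to 0.747). In both libraries the level of Ryr3 was above that of Itpr3. Mrvi1, whose product binds inositol trisphosphate receptors and is a target of cGMP-dependent kinase, was at 115 RPKM in Tet2-/- and 84.0 RPKM in WT. Asph, a locus that also encodes the calcium release proteins junctin and junctate, was at 78.1 and 75.7 RPKM in Tet2-/- and WT. Of this list 7 of 26 genes were in the table, and of the 3 besides Ryr3 that passed the filter none reached 2-fold, with a median difference of 0.04.

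Calcium entry and calcium removal showed no gene past 2-fold. Stim2, a sensor of calcium in the endoplasmic reticulum that opens the plasma membrane channel Orai, stood at 10.2 RPKM in Tet2-/- and 8.41 RPKM in WT, a ratio of 1.21 (1.12 to 1.31). Trpm7, a cation channel with a kinase domain, stood at 25.6 and 25.9 RPKM in Tet2-/- and WT. Atp2c1, the Golgi calcium and manganese pump gene, stood at 31.6 and 32.9 RPKM, and Micu3, a regulator of mitochondrial calcium uptake, at 2.04 and 2.70 RPKM, in the same order. Of the lists, 4 of 45 entry genes and 4 of 21 pump and uptake genes were in the table, 2 of each past the filter. Camk1d, a calmodulin-dependent kinase gene and 1 of 2 listed genes of the 25 on the calmodulin and calcineurin list, stood at 6.90 RPKM in Tet2-/- and 5.83 RPKM in WT.

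Dgki encodes diacylglycerol kinase iota, which converts diacylglycerol to phosphatidic acid. It stood at 9.13 RPKM in the Tet2-/- library and 35.5 RPKM in the WT library. The ratio was 0.257 (0.238 to 0.278), on an estimated 828 and 3151 fragments. Its difference of -1.85 was the largest in size of the 4 lower genes and the 8th lowest of the protein-coding genes. Dgki is on chromosome 6, from 36846022 to 37300184 on the minus strand.

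In WT cells Dgki was the highest of the 4 lower genes, with Ryr3 next, and in Tet2-/- cells Ryr3 stood above Dgki. With no spread between cultures known, the order of these neighbours is that of 1 library each. Dgki holds on its opposite strand the processed pseudogene Gm7452, at 0.557 RPKM in Tet2-/- and 0.493 RPKM in WT, and the antisense RNA gene 1700111E14Rik, which was not analysed here. Dgkh, another diacylglycerol kinase gene and the other one of the 11 on its list that was in the table, stood at 0.0165 RPKM in Tet2-/-, on an estimated 2 fragments, and was listed at 0.01 in WT. No other diacylglycerol kinase was therefore measured above the filter.

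Genes that make or read diacylglycerol did not share the difference of Dgki. Plcb2, a phospholipase C gene activated by G proteins, stood at 67.8 RPKM in Tet2-/- and 73.4 RPKM in WT, a ratio of 0.924 (0.898 to 0.951). Chn2, the gene of a Rac GTPase activating protein with a diacylglycerol-binding domain, stood at 52.5 and 48.7 RPKM in Tet2-/- and WT, with an interval that included 1. Prkd3, a protein kinase D gene, stood at 1.70 and 1.14 RPKM, again with an interval that included 1. These were the 3 of 49 genes of the list in the table, and their median difference was 0.11.

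P2ry10 encodes a G protein-coupled receptor reported to respond to lysophosphatidylserine and other lysophospholipids. It stood at 3.48 RPKM in the Tet2-/- library and 14.2 RPKM in the WT library. The ratio of 0.245 (0.215 to 0.280) was the lowest of the 5 genes, with an interval overlapping that of Dgki, on an estimated 286 and 1139 fragments. On the log2 scale its difference of -1.76 came after that of Dgki, because the added pseudocount weighs more at its lower level. P2ry10 is on chromosome X, from 107088492 to 107104974 on the plus strand.

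P2ry10b, a paralog of P2ry10, shares a stretch of 570 aligned bases at 94.6% identity with its transcript and was not analysed here. The value of P2ry10 is uncertain to the extent that reads of both were shared. Transcripts of Dgki, Otop1 and S100a6 had no match to another annotated gene over at least 100 bases, and for Ryr3 the match was the overlap with Aven. On chromosome X, 52 protein-coding genes passed the filter with a median difference of -0.01. Of these 1 was lower by 2-fold or more, P2ry10 itself, which was chosen on this contrast, and 1 was higher. Each is 1.92%, where 0.902% of all protein-coding genes past the filter were lower and 1.69% higher.

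The other receptors on the list kept closer to their WT level. Gpr55, a receptor for lysophosphatidylinositol, stood at 15.8 RPKM in Tet2-/- and 15.9 RPKM in WT, a ratio of 0.993 (0.929 to 1.06). Lpar6, a lysophosphatidic acid receptor gene, stood at 60.0 RPKM in Tet2-/- and 69.9 RPKM in WT, a ratio of 0.858 (0.836 to 0.882). In WT cells the levels of P2ry10 and Gpr55 were close, and in Tet2-/- cells P2ry10 was well below. The lysophospholipid acyltransferase genes Mboat1 and Mboat7 stood at 16.01 and 64.4 RPKM in Tet2-/- and at 20.3 and 70.5 RPKM in WT, both with intervals below 1. Of 33 receptor genes 3 were in the table, and of 26 enzyme genes 2.

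Otop1 encodes otopetrin 1, a proton-selective channel known from vestibular otoconia formation and sour taste cells in mice. It stood at 3.27 RPKM in the Tet2-/- library and 10.0 RPKM in the WT library. The ratio was 0.326 (0.285 to 0.372), on an estimated 305 and 915 fragments. On the log2 scale its difference of -1.37 was the smallest in size of the 5 and the 13th lowest of the protein-coding genes. By ratio that of Ryr3, 0.343, was closer to 1, and it lay within the interval of Otop1. Otop1 is on chromosome 5, from 38275972 to 38304217 on the plus strand, and its paralog Otop2 was listed at 0.01 in both libraries.

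The proton pump genes on the same list stood slightly higher in the Tet2-/- library, none by 2-fold. Tcirg1, a membrane subunit of the vacuolar proton pump, stood at 24.0 RPKM in Tet2-/- and 21.3 RPKM in WT, a ratio of 1.13 (1.06 to 1.20). Atp6ap2, an accessory protein of that pump, stood at 47.4 and 39.7 RPKM in Tet2-/- and WT, a ratio of 1.19 (1.13 to 1.26). The pump subunit gene Atp6v1c1 stood at 35.2 and 34.0 RPKM and the carbonic anhydrase gene Car13 at 21.1 and 18.9 RPKM, in the same order. Of these 4, the counting interval of Atp6v1c1 took in a ratio of 1. Of 33 genes 6 were in the table, and the 4 besides Otop1 past the filter had differences between 0.05 and 0.25. The chloride channel or transporter genes Clcn2, Clcn3 and Clcn5 were the 3 past the filter of 42 potassium and chloride channel genes. They stood at 0.870, 8.52 and 11.03 RPKM in Tet2-/- and at 1.30, 8.18 and 7.90 RPKM in WT.

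S100a6 encodes calcyclin, a small EF-hand protein that binds calcium and then annexins and other partners. It stood at 581 RPKM in the Tet2-/- library and 170.4 RPKM in the WT library. The ratio was 3.41 (3.22 to 3.61), on an estimated 5334 and 1530 fragments of a 464-base transcript. The difference of 1.76 was the 14th highest of the protein-coding genes. By level S100a6 was 28th of the 1774 protein-coding genes in Tet2-/- and 73rd in WT, which sets it apart from the other 4 genes, the highest of which was 459th in WT.

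S100a6 is on chromosome 3, from 90612882 to 90624181 on the plus strand, in the cluster of S100 genes. Of 14 annotated S100a genes on that chromosome 3 were in the table. S100a13, whose product takes part in the release of proteins without a signal peptide, stood at 92.8 RPKM in Tet2-/- and 82.6 RPKM in WT, a ratio of 1.12 (1.04 to 1.21). S100a2, which lies closest to S100a6 among the genes of the table, with a gap of 21.4 kb, was listed at 0.01 in both libraries. S100a13 did not differ by a size near that of S100a6, and S100a2, at 0.01 in both, could show no difference. S100 partners and other calcium binders stood near their WT level, with Nucb1, a Golgi calcium-binding protein gene, at 775 RPKM in Tet2-/- and 782 RPKM in WT. Sugt1, whose product binds S100a6, stood at 32.5 and 30.3 RPKM in Tet2-/- and WT, and Capns1, the small calpain subunit gene, at 237 and 239.5 RPKM.

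Markers of other myeloid cells, a lineage in which S100a6 is known to be widely expressed, were mostly higher in the Tet2-/- library. Of 14 macrophage and monocyte markers the 6 in the table all had a ratio interval above 1, and together they summed to 23.8 RPKM in Tet2-/- and 1.06 RPKM in WT, mostly Ly6c2. Of 12 neutrophil markers 3 were in the table, summing to 10.1 RPKM in Tet2-/- and 1.10 RPKM in WT, with Csf3r at 0.01 in both. That sum was mostly Ly6g, at 9.61 RPKM in Tet2-/- and 1.10 RPKM in WT, for which no interval was made. Of 8 eosinophil markers 2 summed to 2.27 RPKM in Tet2-/- and 0.829 RPKM in WT. Of these 2, Il5ra had an interval that included 1, and Ear2 rested on an estimated 25 and 2 fragments in Tet2-/- and WT. Neither passed the filter of 1 RPKM, and of the macrophage and monocyte markers only Ly6c2 did. The 1 basophil marker of 5, Mcpt8, stood at 163 RPKM in Tet2-/- and 56.1 RPKM in WT. Lymphocyte markers, 3 of 11, summed to 1.38 and 0.836 RPKM in Tet2-/- and WT, stromal ones, 2 of 8, to 0.0986 and 0.192 RPKM, the erythroid and megakaryocyte marker, 1 of 11, was at 0.01 in both, and no dendritic cell marker of 9 was in the table. Of 16 mast cell markers the 3 in the table, Fcer1g, Slc18a2 and Mitf, summed to 959.9 RPKM in Tet2-/- and 1198 RPKM in WT, and Kit, Fcer1a and Ms4a2 were not analysed here. The part of these cell types in the results was not tested, and in bulk RNA a change in the number of cells of a type and a change in RNA per cell cannot be told apart.

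**Figure D3:**
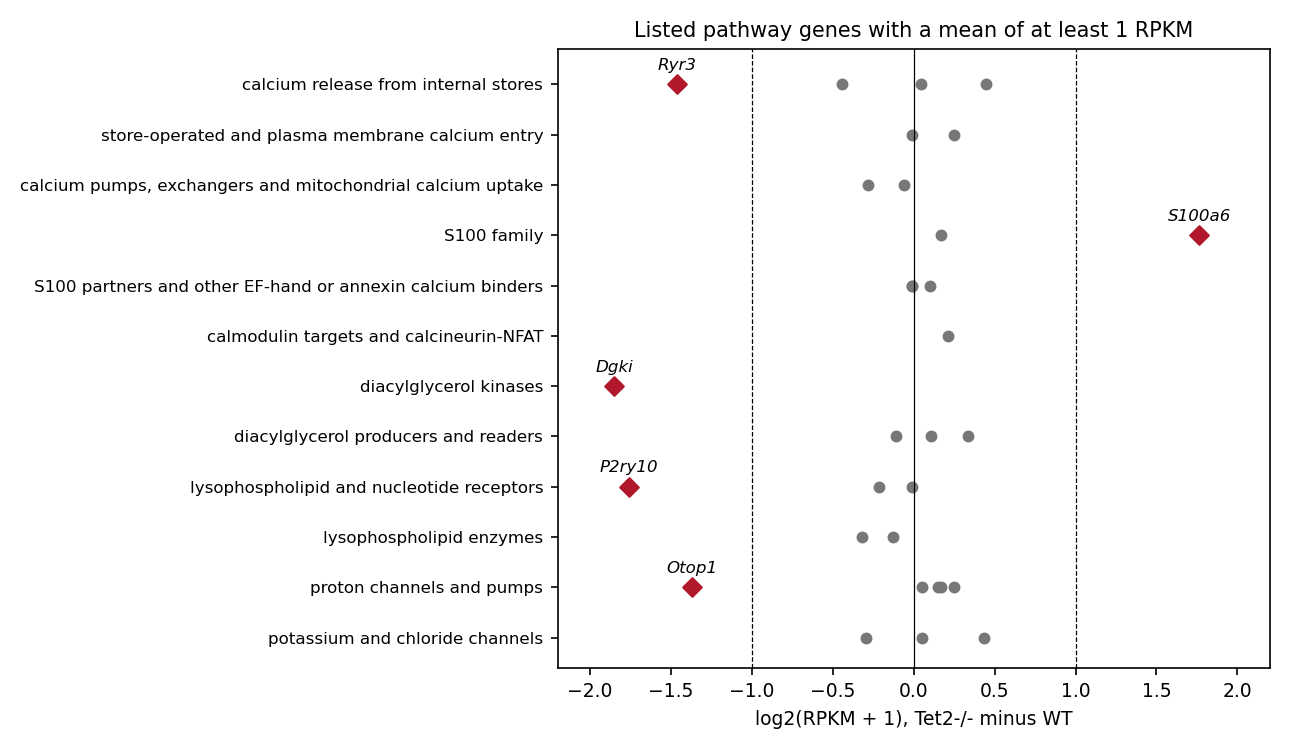
Difference in log2(RPKM + 1), Tet2-/- minus WT (horizontal axis), of every listed gene averaging 1 RPKM or more, by pathway list (vertical axis), with Ryr3, Dgki, P2ry10, Otop1 and S100a6 as red diamonds and the other 26 genes in grey. Dashed lines mark 2-fold, and the grey points lie between -0.44 and 0.44.

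Over all 12 lists, 365 genes in number, 48 were in the table and 43 of those were other than the 5 genes. Of the 43, 26 passed the filter, and 0 were higher and 0 lower by 2-fold or more, where 4.51% of all symbols past the filter, and 2.59% of the protein-coding ones, were beyond 2-fold. All 26 lay within 1.5-fold, between -0.44 and 0.44, with a median of 0.05. Counting intervals lay above 1 for 8 of the 26 and below 1 for 7. The 5 genes had been chosen for their difference and the 26 had not, so the contrast between them follows in part from the choice. The lists' other genes were not analysed here.

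**Figure D4:**
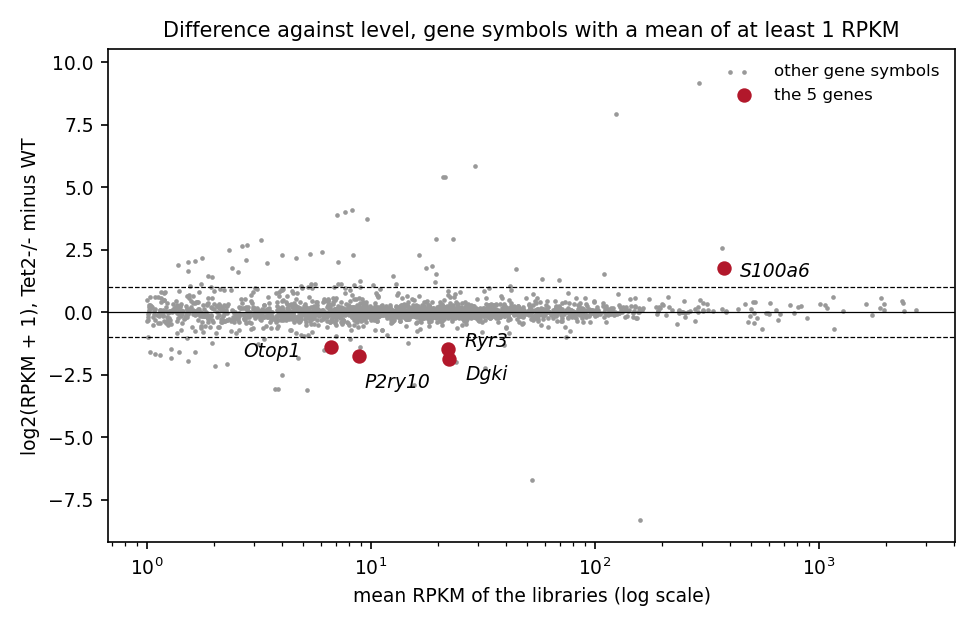
Difference in log2(RPKM + 1), Tet2-/- minus WT (vertical axis), against the mean RPKM of the libraries on a log axis (horizontal), for the 2107 gene symbols that average 1 RPKM or more. Ryr3, Dgki, P2ry10 and Otop1 (red) lie below the lower dashed line at -1 and S100a6 above the upper one at 1, where most grey points lie near 0.

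Ryr3 and Dgki lay close to each other in level, and P2ry10 and Otop1 lay lower than both. Likeness was measured as the distance between points given by log2(RPKM + 1) in Tet2-/- and in WT, over 1812 protein-coding genes. It thus rests on 2 libraries only. Ryr3, Dgki, P2ry10 and Otop1 were chosen on these same values, and all stood lower in Tet2-/-. Their nearness to each other thus follows in part from the choice, and nothing is read from it. Dgki was the nearest gene to Ryr3, at a distance of 0.30, followed by Cdh2, the N-cadherin gene, at 0.38 and Gclc, a glutathione synthesis gene, at 0.66. The gene nearest to Dgki was Cdh2, at 9.04 RPKM in Tet2-/- and 39.0 RPKM in WT, at a distance of 0.13. Ryr3 and Ncf1, a subunit gene of the phagocyte oxidase, came next at 0.30 and 0.64.

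Otop1, chosen on the same values, was the gene nearest to P2ry10, at 0.47. Vcan, the versican gene, followed at 0.49 and Hic1, a transcriptional repressor gene, at 0.58. Hic1 was nearest to Otop1, at 0.21, before Rgs13 at 0.36 and Ttyh2, a chloride channel family gene, at 0.46. Rgs13, which in mast cells restrains G protein signalling, stood at 4.45 RPKM in Tet2-/- and 9.48 RPKM in WT. S100a6 had no near neighbour, its closest being Ptprg, a receptor phosphatase gene, at 0.92, Cox6c at 0.97 and Snrpe at 1.05. Ptprg stood at 343 RPKM in Tet2-/- and 245 RPKM in WT, a smaller difference of 0.48.

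Ryr3 and Dgki share a great length. They span 585742 and 454163 bases of the genome, against 28246 for Otop1, 16483 for P2ry10 and 11300 for S100a6. Of the 18 protein-coding genes of 400 kb or more that passed the filter, 2 were lower by 2-fold or more, Ryr3 and Dgki themselves. That is 11.1%, where 0.902% of all protein-coding genes past the filter were lower. Both were chosen on this contrast, so nothing is read from that share. The 1 that was higher, 5.56% against 1.69% of all, was the gene model Gm20388, at 7.36 RPKM in Tet2-/- and 0.705 RPKM in WT. The median difference of those 18 was 0.03, and that of the 814 genes under 20 kb was 0.02. Fars2, the next longer gene than Ryr3, stood at 8.06 RPKM in Tet2-/- and 6.94 RPKM in WT, and Camk1d, given above, was the next shorter one than Dgki. Among the genes between the pair in length, Gmds stood at 26.9 RPKM in Tet2-/- and 35.7 RPKM in WT and Snd1 at 127 and 129 RPKM. Dnm3, between the pair too, stood at 18.9 RPKM in Tet2-/- and 29.7 RPKM in WT, a ratio of 0.635 (0.576 to 0.700). Edil3, also between them, stood at 1.80 RPKM in Tet2-/- and 0.601 RPKM in WT. Its ratio was 3.00, at a low level that gave a log2 difference of 0.81. Dst, the shortest of the 18, had a difference of -0.83, and Hivep3, the next longer one, had one of 0.57.

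The genes next to Ryr3, Dgki and P2ry10 along the chromosome that had a level did not differ as much. Creb3l2, a stress-related transcription factor gene 27.1 kb beyond Dgki, stood at 11.9 RPKM in Tet2-/- and 20.3 RPKM in WT, a difference of -0.73 in the same direction as Dgki. Fmn1, a formin gene 111 kb beyond Ryr3, stood at 1.27 RPKM in Tet2-/- and 1.17 RPKM in WT, and Gm21985, on the other side at 225 kb, at 0.810 and 1.44 RPKM. Itm2a, 292 kb from P2ry10, stood at 1.04 and 1.12 RPKM in Tet2-/- and WT. The other neighbours in the table, among them those on both sides of Otop1 and S100a6, were listed at 0.01 in both libraries and could show no difference.

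Among the protein-coding genes past the filter that had a promoter window, the share beyond 2-fold was higher in the class with fewest CpG dinucleotides before the start, to which P2ry10 and S100a6 belong. Of 125 protein-coding genes past the filter with 0 to 5 in the window, 16 were beyond 2-fold, 12.8%, including these 2. Of 457 with 6 to 15, the class of Dgki and Otop1, 9 were, 1.97%, and of 848 with 16 or more, 10 were, 1.18%. Without the 4 genes the counts were 14 of 123 and 7 of 455 in the lower classes. The classes differed in level too, with a median mean of 11.8, 17.6 and 18.0 RPKM. No test was made of this pattern.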

How the data were processed

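Mast cell RNA, 1 µg per library of Tet2-/- and of WT cells, was made into libraries with the TruSeq RNA kit, per the labels' protocols. The authors deposited RPKM values, per the file headers, in a column for each library. The submitters' processing notes name the build mm10. Of the aligner, the counting program and the annotation used, no source here gives the name.

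The value 0.01 fills 57.4% of the Tet2-/- column and 58.1% of the WT column and was read as no reads, although 80 and 67 values lie below it. RPKM depends on the gene model's length, so short models such as S100a6 are the less certain. Depth was inferred from genes with a single transcript, where RPKM times effective length (fragments of 175 bases) should give whole fragments. The depths and the fragment length kept were those, within a searched range, that gave the highest shares of whole values. These shares, to within 0.1, were 95.7% of 257 Tet2-/- values and 95% of 238 WT values. By chance 20% would be whole at a fixed setting, a figure that does not allow for the search. No interval was made for transcripts under 400 bases or symbols with several models.

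The filter was an average of 1 RPKM over the libraries, and a gene was called at a log2(RPKM + 1) difference of 1 or more in size, with no test. Of the symbols, 7861 matched GENCODE mouse release M21 and 278 did not. Sequence matches were sought with BLAST 2.17.0. RefSeq promoter windows were found for 80.6% of the 1774 protein-coding genes, and a gene with several windows was classed by the one with most CpG. The members, the lists, the rule for named genes and the alternatives (other pseudocounts, filters, fold thresholds, scalings and gene sets) were chosen with earlier results of these data known. The rule named the 5 genes, up to 6 genes of each list reaching 1 RPKM, the 3 genes nearest in level to each of the 5, and the nearest gene of the table on each side. Long genes, overlapping genes and paralogs were named after their values were seen. The software was Python 3.11.15 with scipy 1.17.1 for intervals, pandas 2.3.3 and numpy 2.4.6 for tables and matplotlib 3.10.9 for plots.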

Additional observations from a re-analysis of the deposited data

How the results depend on the processing

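The differences of the 5 genes kept their direction under the other pseudocounts and scalings tried. A change of pseudocount cannot turn a sign, and the scalings shifted log2 differences by only about 0.01. With a pseudocount of 0.1 Ryr3 was at -1.54, P2ry10 at -2.00 and Otop1 at -1.59. With a pseudocount of 5 Ryr3 was at -1.22, Dgki at -1.52, P2ry10 at -1.18 and Otop1 at -0.86, which is short of 2-fold. The counts over all symbols, 61 higher and 34 lower in Tet2-/-, were 90 and 46 with a pseudocount of 0.1 and 33 and 14 with 5. They were 40 and 16 when the filter was raised to 5 RPKM, and 44 and 28 without symbols at 0.01 in either library. At a 1.5-fold threshold they were 123 and 76, at 4-fold 27 and 10, and over protein-coding genes only 30 and 16. The stricter settings give fewer by construction. Among the other pathway genes 0 passed the fold in any of the 10 alternatives, 1.5-fold included, and the median of the genes that make or read diacylglycerol turned to -0.002 under the filter of 5 RPKM, which leaves fewer genes. No paired analysis was possible because there is a single library for each genotype, and neither could be left out. The inferred depths limit genes near 0.01 RPKM, such as Dgkh, to a few fragments.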

Other observations

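The higher share of 2-fold differences among genes with few CpG dinucleotides before the start, the class of P2ry10 and S100a6, was also present under other settings, which were looked at after the values were seen and were not tested. Among genes reaching 10 RPKM it was 15.1% of 73 genes with 0 to 5 CpG, 1.24% of 322 with 6 to 15 and 1.16% of 601 with 16 or more. With each gene classed by its window with fewest CpG, it was 8.70% of 253, 1.27% of 474 and 0.996% of 703. At 1.5-fold it was 22.4%, 5.91% and 4.48%. These shares include P2ry10, S100a6, Dgki and Otop1, which were chosen on this contrast. Without them, the classes of 0 to 5 and 6 to 15 had 9 of 71 and 2 of 320 among genes reaching 10 RPKM. By the window with fewest CpG they had 20 of 251 and 4 of 472, and at 1.5-fold 26 of 123 and 25 of 455. In the class with fewest CpG under the main setting, P2ry10 and S100a6 included, 10 genes were higher and 6 lower in Tet2-/- by 2-fold or more. Both directions thus occurred. RefSeq starts may not be those used in these cells, and methylation at them was not measured.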
